A study of Mus musculus with 6 samples.

Results

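A set of 802 blood B cells of mice was defined by 4 marker genes, Bhlhe41, Fcrl5, Zbtb32 and Nid1. A barcode was kept with at least 200 detected genes and at most 20% of its UMIs (unique molecular identifiers, 1 per captured mRNA molecule) from mitochondrial genes. It was called a gated B cell with at least 3 UMIs of Cd79a, Cd79b and Ms4a1 together, no UMI of Cd3d, Cd3e or Cd3g and under 5 UMIs of Jchain, and a member with at least 2 UMIs of the 4 markers together. The 802 members were 3.78% of the 21224 gated B cells and came from 49025 kept cells in all. The remaining 20422 gated B cells are called the other B cells here. The marker genes were taken from a cluster of cells in these same libraries, so differences between members and other B cells are given below as a description, with no test.

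The cells are peripheral blood mononuclear cells of male mice of 12 to 13 weeks, purified on a density gradient with lysis of red cells and profiled with the BD Rhapsody 3′ single-cell assay. The diabetic group (T2D, 3 libraries) received intraperitoneal streptozotocin, which destroys pancreatic beta cells, and by the series title the model combines this drug with a high-fat diet. The control group (Con, 3 libraries) received saline by the same route. The diet of the controls, the mouse strain, and whether a library holds 1 mouse or a pool are not stated in the labels, so p-values measure the spread between libraries, which may in part be technical, and the effects of diet and streptozotocin cannot be told apart.

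B cells of blood are mostly recirculating follicular cells, which carry IgM and IgD together with the low-affinity IgE receptor CD23 (Fcer2a). Innate-like B-1 cells self-renew, make natural IgM and have little IgD and CD23, while memory B cells have met antigen and may have switched from IgM to another isotype. Bhlhe41 encodes a transcription factor needed by B-1a cells, Fcrl5 an Fc receptor-like protein of marginal zone and B-1 cells in mice, Zbtb32 a repressor that restrains memory B cell responses, and Nid1 the basement membrane glycoprotein nidogen. In the GENCODE M21 annotation of GRCm38, Bhlhe41 lies at chr6:145858243-145865558 on the minus strand and Fcrl5 at chr3:87435773-87500678 on the plus strand. Zbtb32 lies at chr7:30589681-30598909 on the minus strand, and Nid1 at chr13:13437551-13512269 on the plus strand.

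Libraries held 7404 to 9112 barcodes with 23574052 to 32321855 UMIs, and 111 to 158 members with 494903 to 768400 UMIs. Members were deeper than the other B cells (median 4020.5 against 2745 UMIs), and among members the library medians ranged from 3574 to 4655 UMIs with no separation of the groups. Of the 47915 distinct barcodes kept, 1100 occurred in more than 1 library, among members 1 of 801. No doublet was removed. Of the members, 22 lay among the highest 3% of doublet scores.

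Nid1 brought in most members. It was detected in 527 of the 802 (65.7%), Fcrl5 in 315 (39.3%), Bhlhe41 in 287 (35.8%) and Zbtb32 in 182 (22.7%). Co-detection was limited: 430 members had UMIs of 1 of the 4 genes, 262 of 2, 83 of 3 and 27 of all 4. The largest single pattern was Nid1 without the other 3 genes, in 256 members (31.9%). For comparison, 35 of 15815 T cells (0.221%) had a marker sum of at least 2, at a median depth of 3856 UMIs against 2773 in gated B cells. Zbtb32 separated these classes least, with a UMI in 0.929% of T cells and 1.10% of gated B cells, and in 0.288% of NK and 0.479% of myeloid cells. Whether T cells express it or hold it as free RNA was not tested.

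At the marker threshold the profile changed by degrees. Fcer2a stood at 893 CPM (UMIs of the gene per 1000000 UMIs of the class) in the 19269 gated B cells with no marker UMI, 651 in the 1153 with 1 UMI just outside the rule, 567 in the 413 members with 2 UMIs just inside it, and 230 in the 389 members with 3 or more. Ahnak, a large scaffold protein of the cell cortex, ran the other way, with 218, 411, 683 and 1328 CPM. The 2-UMI members therefore lay between the excluded cells and the members with more marker UMIs, and median depth also rose along this order, from 2723 over 3278 and 3513 to 4745 UMIs.

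Members had lower levels of follicular B cell genes than the other B cells of the same library. Of the 10 follicular genes, 7 were lower in 6 of 6 libraries and 1, Klf2, was higher, beside 11.7% lower and 8.33% higher in 6 of 6 among all 9395 genes compared. Fcer2a averaged 384 ± 72.7 CPM (SD, n = 6 libraries) in members and 872 ± 63.4 in other B cells, with no overlap between the highest member library at 478 and the lowest of the others at 783. Ighd, the IgD heavy chain, averaged 1616 against 3262 CPM, while Ighm, the IgM heavy chain, was higher in members in 6 of 6 libraries (8151 against 6778 CPM). Icosl, a co-stimulatory ligand for T cells, averaged 133 against 292 CPM. The complement receptor gene Cr2, high in marginal zone cells, was lower too (217 against 358 CPM). The marginal zone list as a whole was mixed. Of its 8 genes measured, 3 were higher in 6 of 6 libraries, among them Plac8 (1084 against 388 CPM), and 1 was lower. Of 10 genes of MHC class II antigen presentation 7 were lower in 6 of 6 libraries, by small amounts such as 12302 against 13941 CPM for the invariant chain Cd74.

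Genes of B-1 cells were mostly higher in members. Of the 13 B-1 genes measured, 10 were higher in 6 of 6 libraries and none lower, against the 8.33% of all genes. Zbtb20, a transcription factor of B-1 and plasma cells, averaged 557 ± 93.3 CPM against 184 ± 14.5. Spn, the B-1 surface sialoglycoprotein CD43, averaged 87.8 against 29.9 CPM and the tetraspanin Cd9 77.7 against 25.1 CPM. Ahr, the aryl hydrocarbon receptor, averaged 22.1 against 4.62 CPM. Cd5, the defining receptor of B-1a cells, was not among those 10 genes. It averaged only 9.60 ± 5.47 CPM in members and 4.65 in other B cells and was higher in 5 of 6 libraries. Csf2rb, a receptor chain for IL-3, IL-5 and GM-CSF, stood at 104 against 22.0 CPM and the IL-5 receptor chain Il5ra at 63.8 against 33.6 CPM.

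Memory genes were higher as well, so the label of innate-like or memory B cells was not narrowed by these lists. Of 10 genes of adhesion and cortex proteins common to memory lymphocytes, 9 were higher in 6 of 6 libraries, the exception being S100a4. The calcium-binding protein gene S100a6 averaged 362 ± 171 CPM against 65.5 ± 20.1, with T2D library 2 at 700 and the 5 others between 224 and 348. Itgb1, the integrin beta-1 chain, averaged 310 against 70.8 CPM. Of 6 memory surface genes, 5 were higher in 6 of 6, among them the co-stimulatory ligand Cd80 (29.7 against 2.96 CPM) and the ectonucleotidase Nt5e, or CD73 (24.7 against 4.03 CPM). Of 7 genes of age-associated B cells measured, 3 were higher in 6 of 6 libraries and 0 lower, beside 8.33% higher among all genes. Of this list, Cxcr3, the receptor for interferon-induced chemokines, was at 41.8 against 4.28 CPM. Itgax, the CD11c gene, was at 9.71 against 5.55 CPM and not higher in every library. Tbx21 and Cd27 fell under the level of 5 CPM in both classes and were not compared.

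Beyond these lists, Sspn, encoding the membrane protein sarcospan, had the highest ratio of all genes outside the rule and the immunoglobulins. It averaged 160 ± 28.4 CPM in members and 12.0 ± 1.19 in other B cells. The other genes of the highest 20 included Actn1 (alpha-actinin, 109 against 21.2 CPM), Plac8 (1084 against 388 CPM), the phosphatase gene Ptpn22 that dampens antigen receptor signals (348 against 123 CPM) and the nuclease gene Dnase1l3 (62.0 against 11.2 CPM). Among the lowest 10 were Zfp608 (96.9 against 240 CPM), the chromatin organiser Satb1 (177 against 394 CPM), Vpreb3 of the pre-B cell receptor complex (97.1 against 218 CPM) and Zfp318, which sustains IgD transcripts (391 against 813 CPM).

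**Figure D1:**
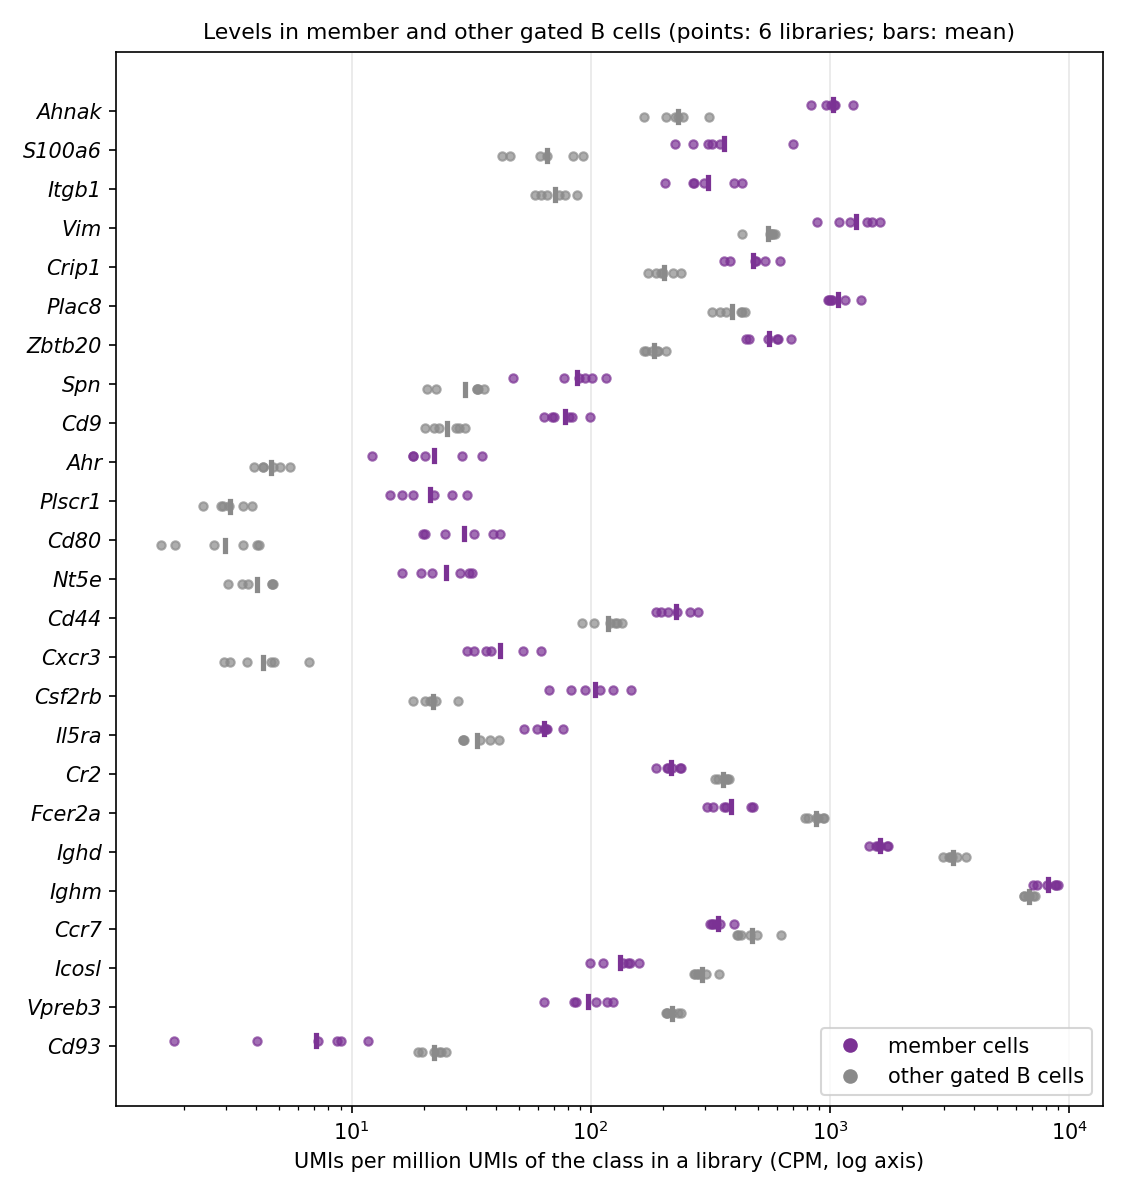
Level of 25 genes (CPM, log axis) in member cells and other gated B cells, 1 point per library with the mean as a bar. Memory, B-1 and cytokine receptor genes lie higher in members (Ahnak 1024 against 231 CPM), and Fcer2a, Ighd, Ccr7 and Icosl lie lower.

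The members were not uniform. The following split by marker was made after its values had been seen and is a description. The 256 members with Nid1 alone lay nearer to the other B cells than the 546 members with Bhlhe41, Fcrl5 or Zbtb32: Fcer2a stood at 684 against 269 CPM, Itgb1 at 92.3 against 385 CPM, Spn at 13.3 against 116 CPM and Cd80 at 11.3 against 37.2 CPM. Ahnak at 650 CPM and Zbtb20 at 394 CPM were still above the pooled 231 and 185 CPM of other B cells in the Nid1-alone cells. Zbtb32-positive members stood farthest from the other B cells, with Fcer2a at 117, Ighd at 650, Itgb1 at 642 and Ahnak at 1752 CPM.

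Class-switched cells were concentrated among the members. A cell was called switched with at least 3 UMIs of IgG, IgA or IgE heavy chain genes that also exceeded those of Ighm and Ighd. By this rule 60 of 802 members were switched (7.48%, 95% Wilson interval 5.86 to 9.51%, counting error only) and 102 of 20422 other B cells (0.499%). For comparison, 91 of 15815 T cells (0.575%) met it. T cells make neither Ighm nor Ighd, which the switched UMIs must exceed, so their share is no background for B cells. With at least 5 switched UMIs the shares were 7.48% of members, 0.460% of other B cells and 0.247% of T cells. The T cell share was uneven, with 0.924% and 1.45% in T2D libraries 2 and 3 and at most 0.217% in the other 4. After each cell was thinned to 1500 UMIs the shares were 6.44% of 792 members, 0.460% of other B cells and 0.217% of T cells. Members were 3.78% of gated B cells but 37.0% of the 162 switched ones. Of the 60, 31 carried mainly Ighg2b, 10 Ighg2c, 10 Igha, 7 Ighg3 and 2 Ighg1. Most members were therefore unswitched by this rule.

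The switched share differed by marker. It was 19.8% of the 182 members with Zbtb32, 12.9% of the 287 with Bhlhe41, 2.43% of the 206 with Fcrl5 but no Bhlhe41, and 1.95% of the 256 with Nid1 alone. The Fcrl5 cells without Bhlhe41 had Ighm at 8969 CPM, above the 6775 CPM of the other B cells. UMIs of the proliferation genes Mki67 and Top2a, at least 2 together, were found in 38 members (4.74%, interval 3.47 to 6.44%) and 206 other B cells (1.01%), and in thinned cells in 1.26% and 0.331%. They were in 35 of the 546 members with Bhlhe41, Fcrl5 or Zbtb32 and in 3 of the 256 with Nid1 alone.

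**Figure D2:**
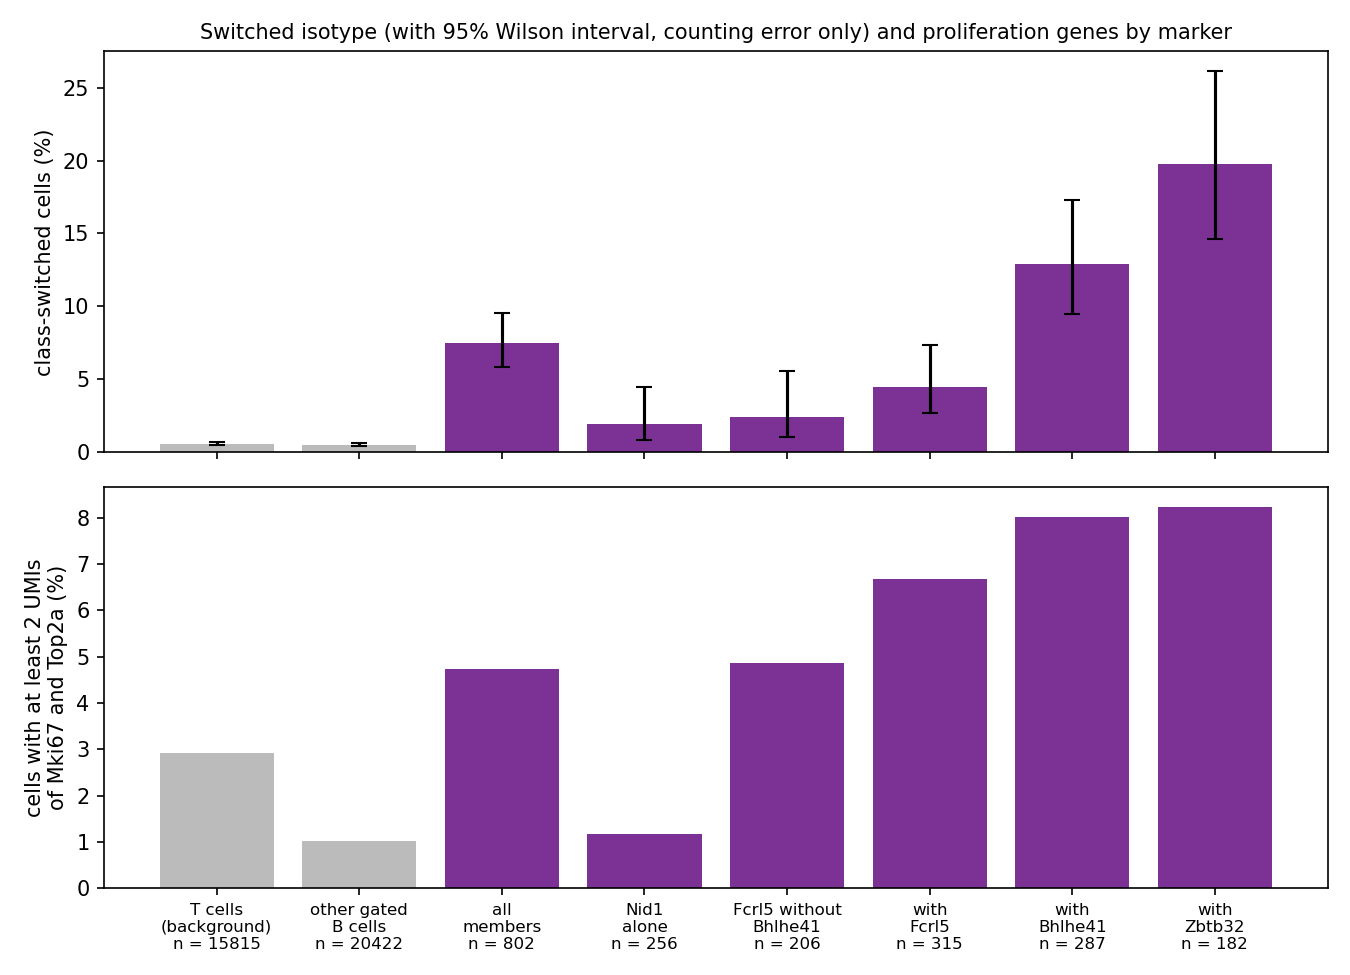
Share of class-switched cells (upper panel, with 95% Wilson intervals) and of cells with at least 2 UMIs of Mki67 and Top2a (lower panel), in T cells, other gated B cells, all members and members by marker. The switched share is highest in members with Zbtb32, at 19.8%. The share with Mki67 and Top2a is much the same with Zbtb32 (8.24%) and with Bhlhe41 (8.01%), which are overlapping sets.

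The switched share did not differ detectably between the groups. It was 7.14%, 10.9% and 6.38% in the Con libraries and 4.38%, 6.96% and 9.91% in the T2D libraries. The means were 8.13 ± 2.39% and 7.08 ± 2.77% (SD, n = 3 each), the ranges overlapped, and the two-sided exact permutation test gave p = 0.6, where 0.1 is the smallest value 3 against 3 libraries allow. Leaving out Con library 2 or T2D library 1 turned the difference from -1.04 to 0.321 and 0.310 percentage points.

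Immunoglobulin variable genes could be read in few cells. With at least 2 UMIs of a V gene that held most of the cell's V gene UMIs, 82 members had an assigned heavy chain V gene and 180 a kappa V gene. Ighv3-6 was the most frequent heavy V gene in members, in 8 of 82 (9.76%) against 175 of 1619 other B cells (10.8%), followed by Ighv1-18 and Ighv1-26 with 5 cells each, Ighv1-82 with 4 and Ighv1-38 with 3, tied with 4 other genes. Of the V genes known from B-1 antibodies to phosphatidylcholine, Ighv12-3 was in 2 of 82 members and 1 of 1619 other B cells, Ighv11-2 in none of either, and the kappa genes Igkv14-126 and Igkv4-91 in 2 and 4 of 180 members and in 10 and 20 of 2847 other B cells. None of the 4 passed the two-sided exact sign-flip permutation test over libraries (adjusted p = 1 for each), and 0 of 82 cells allows a share of up to 3.66%. With 6 libraries and adjustment over 4 genes, a single gene could not pass this test whatever its values. With so few cells as well, the test could not decide the question. Ighv11-2 had no cell in either class, and Ighv12-3 differed only in Con library 3 and T2D library 1. With at least 1 UMI in place of 2, all 4 had adjusted p = 0.25 by the same test. This setting could not decide the question either, for the same reason, and Ighv11-2 differed in no T2D library. Igkv14-126 was then in 8 of 394 members and 34 of 8161 other B cells, and Ighv11-2 in 3 of 266 and 2 of 6293.

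The share of members among all kept cells did not pass the test between groups. It was 1.66%, 1.76% and 1.74% in Con and 1.52%, 1.79% and 1.36% in T2D. The means were 1.72 ± 0.0497% and 1.56 ± 0.220% (SD, n = 3), a log2 ratio of -0.14 ± 0.14 (SE), with adjusted p = 0.395 by edgeR's quasi-likelihood test over 8 cell classes and p = 0.4 by the exact permutation test. The other B cells fell over the same libraries, from 47.5 ± 0.627% to 36.4 ± 3.30% of kept cells (log2 -0.38, adjusted p = 0.0273 by the same edgeR test), and T cells rose from 26.4% to 37.5% (log2 0.50, adjusted p = 0.0127).

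Taken as a share of gated B cells, members were higher in every T2D library than in any Con library: 3.42%, 3.52% and 3.55% against 3.71%, 4.65% and 3.96%. This difference did not pass either, with a log2 ratio of 0.23 and exact permutation p = 0.1, the smallest possible. Adjusted p was 0.0798 by edgeR's quasi-likelihood test, here over 3 classes: members, and other B cells with and without a marker UMI. The direction thus turned with the denominator. Without T2D library 1 the log2 ratio was 0.31 and passed (adjusted p = 0.0186 by edgeR), and without T2D library 2 it was 0.13 (adjusted p = 0.413). When each cell was thinned to 1500 UMIs, a setting added for this denominator after the data were seen, the share of gated B cells was 1.38 ± 0.114% in Con and 1.89 ± 0.182% in T2D, with a log2 ratio of 0.45 and adjusted p = 0.0233 by edgeR.

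**Figure D3:**
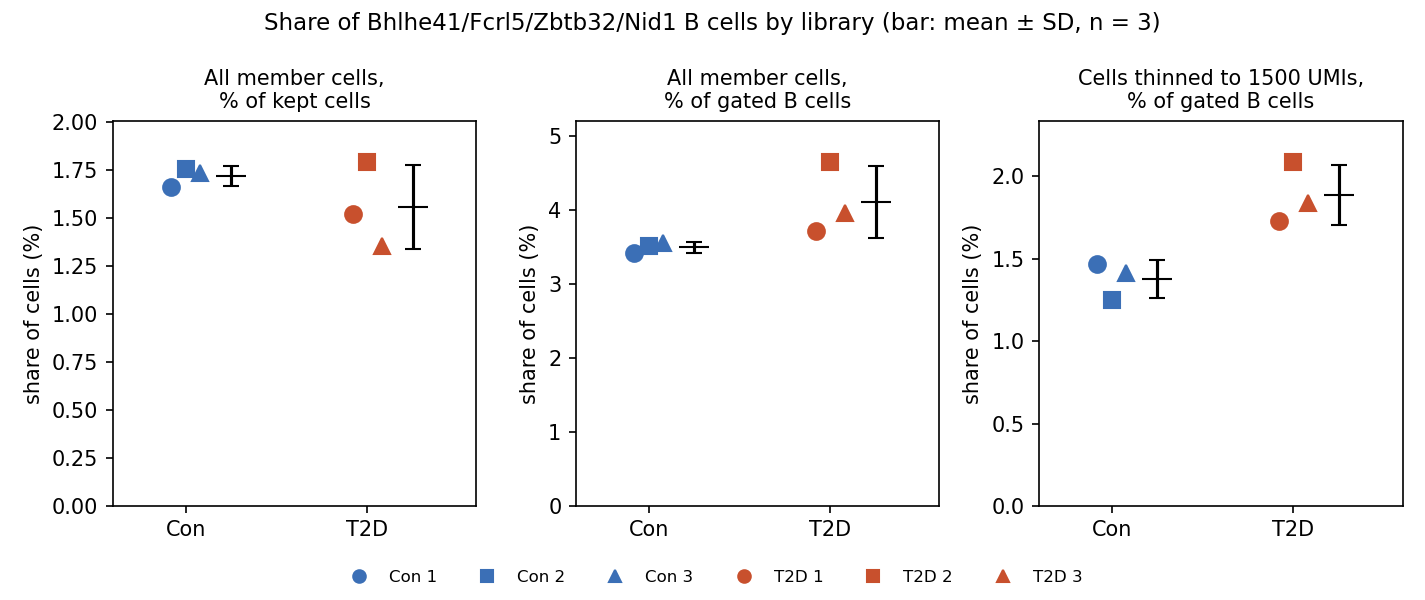
Share of members by library as a percentage of all kept cells, of gated B cells, and of gated B cells after thinning every cell to 1500 UMIs, with mean and SD (n = 3). The groups overlap in the first panel and do not overlap in the other panels, where the 3 T2D libraries lie higher (3.71 to 4.65% against 3.42 to 3.55% of gated B cells).

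As a description with no test, on the split by marker made after its values were seen, Nid1-alone cells were 35.7%, 39.5% and 34.8% of members in Con and 25.5%, 26.6% and 30.6% in T2D. Moving them to the other B cells, a setting also added after the data were seen, gave 2.21 ± 0.0951% of gated B cells in Con and 2.97 ± 0.379% in T2D. In that setting the share passed (log2 0.43, adjusted p = 0.0152 by edgeR), with exact permutation p = 0.1. Tested over all gated B cells, whose gate uses none of the 4 markers, 0 of the 4 marker genes were called by edgeR's quasi-likelihood test, where 0.88% of 11586 genes were called, and 0 by DESeq2. Fcrl5 was the only one with an unadjusted p under 0.05. Its level was 10.4, 10.7 and 12.1 CPM in Con and 17.5, 18.6 and 11.8 CPM in T2D, with a log2 ratio of 0.52 ± 0.17 (SE) and adjusted p = 0.173 by edgeR. T2D library 3 lay within the Con range. The log2 ratios of Bhlhe41, Zbtb32 and Nid1 were 0.36, 0.16 and -0.06, with adjusted p of 0.383, 0.832 and 0.868 by edgeR.

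Gene expression within the members was compared on UMIs summed per library. Of 6628 genes tested, 12 were called (0.181%) at an adjusted p under 0.05 by edgeR's quasi-likelihood test, 1 higher in T2D (0.0151%) and 11 lower (0.166%), and 447 had an unadjusted p under 0.05. Values of the 3 libraries per group did not overlap for 12.1% of all genes tested. The gene that rose was Ctla4, and those that fell were led in size by Cdkn1a and Hes1.

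Ctla4 encodes an inhibitory receptor of T cells that B-1 cells also express. It lies at chr1:60887000-60915832 of GRCm38 on the plus strand. Its level in members was 9.07, 12.6 and 15.9 CPM in Con and 56.3, 36.4 and 52.5 CPM in T2D, from 5, 7 and 11 UMIs against 31, 28 and 26. All T2D libraries lay above all Con libraries. The log2 ratio was 1.86 ± 0.33 (SE), with adjusted p = 0.00483 by edgeR's quasi-likelihood test. A Ctla4 UMI was found in 19 of 396 Con members (4.80%) and 54 of 406 T2D members (13.3%), and in thinned cells in 1.52% and 4.77%. The call was lost among members with at least 3 marker UMIs (log2 1.40, adjusted p = 0.232 by edgeR) and without the Nid1-alone cells (log2 1.46, adjusted p = 0.102 by edgeR).

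T cell RNA moved in the same direction. The summed level of 12 T cell genes in members was 247 to 342 CPM in Con and 411 to 450 CPM in T2D, none of the 12 was at 0, and none of the 7 tested was called. T cells themselves had a Ctla4 UMI in 7.43% of Con and 13.4% of T2D cells. Other B cells had one in 0.421% and 1.21%, with 1.61 and 4.50 CPM and a log2 ratio of 1.46 (adjusted p = 0.0108 by edgeR's quasi-likelihood test over other B cells, where 0.942% of genes were called). The rise in members exceeded that in other B cells by 0.43 ± 0.61 on the log2 scale, which did not pass the test (adjusted p = 0.999 by edgeR). Foxp3, the defining factor of regulatory T cells, had no UMI in any of the 802 members, which allows a share of up to 0.374% of cells with a UMI. It was found in only 1.05% of T cells, so its absence in members cannot decide whether they held T cell RNA. The 73 members with a Ctla4 UMI had the T cell genes at 422 CPM and the 729 others at 364 CPM. When cells with 2 or more UMIs of other lineages were left out, Ctla4 had too few UMIs in the remaining members to be tested, so the part of T cell RNA in the Ctla4 difference was not tested.

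**Figure D4:**
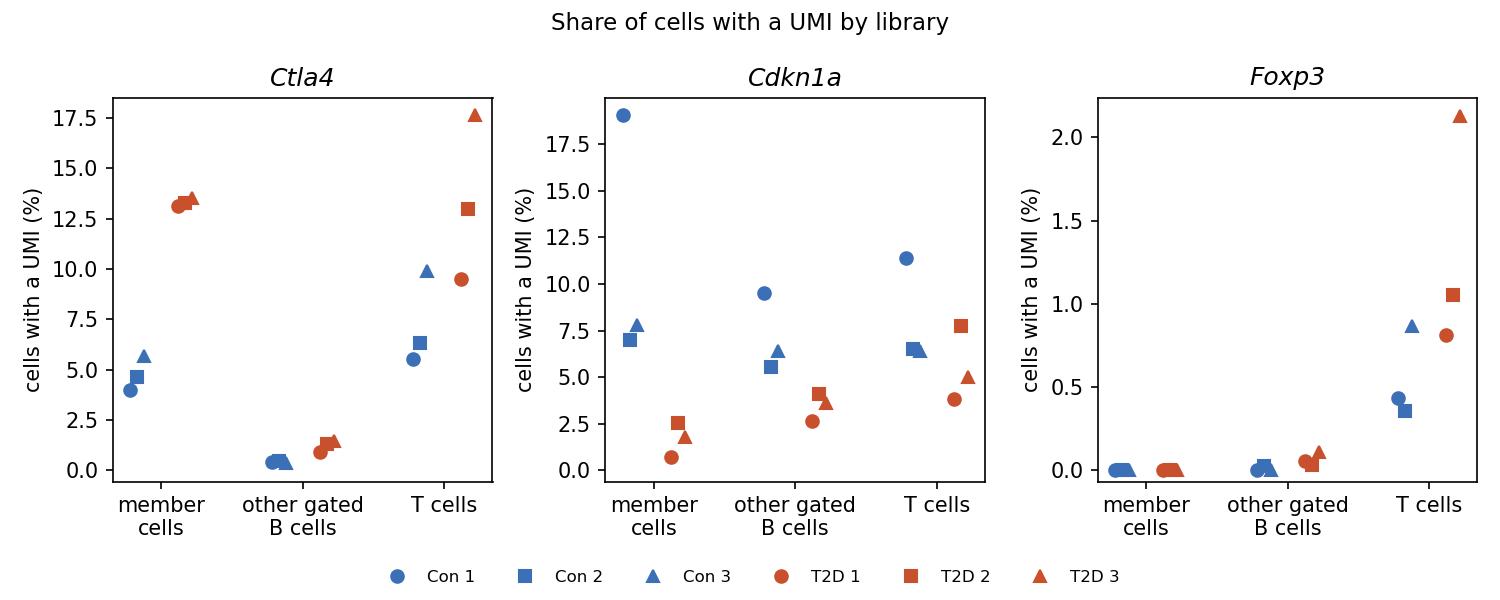
Share of cells with a UMI of Ctla4, Cdkn1a and Foxp3 by library in members, other gated B cells and T cells. Ctla4-positive members are 3.97 to 5.67% in Con and 13.1 to 13.5% in T2D, Cdkn1a-positive members are 6.98 to 19.0% and 0.730 to 2.53%, and Foxp3 is at 0 in the members of all 6 libraries.

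Cdkn1a encodes p21, an inhibitor of the cell cycle, and lies at chr17:29090976-29100727 of GRCm38 on the plus strand. It fell from 58.0, 34.3 and 27.4 CPM in Con to 1.81, 5.21 and 4.04 CPM in T2D, that is from 70 UMIs in 396 cells to 7 UMIs in 406 cells. The log2 ratio was -3.31 ± 0.49 (SE) with adjusted p = 0.000209 by edgeR's quasi-likelihood test, and it stayed called in each of the 6 fits without 1 library. Cells with a UMI were 19.0% of members in Con library 1 and 6.98% and 7.80% in the other Con libraries, and Con library 1 was also the highest in other B cells (9.49%) and T cells (11.4%). In other B cells the mean level went from 36.8 to 18.5 CPM, which did not pass (adjusted p = 0.282 by edgeR). The gene had too few UMIs to be tested in members with at least 3 marker UMIs, or when the highest doublet scores, the cells with 2 or more UMIs of other lineages, or the Nid1-alone cells were left out.

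Hes1, a target of Notch signalling, fell from 92.5, 82.9 and 65.0 CPM to 30.9, 36.4 and 22.2 CPM (log2 -1.39 ± 0.25 SE, adjusted p = 0.00423 by edgeR). In other B cells it went from 96.9 to 42.1 CPM on average (log2 -1.22, adjusted p = 0.00545 by edgeR). The call in members was lost, with the sign kept, with at least 3 marker UMIs (log2 -0.81, adjusted p = 0.667 by edgeR), without the Nid1-alone cells (log2 -1.05, adjusted p = 0.186 by edgeR) and without the cells with 2 or more UMIs of other lineages (log2 -1.73, adjusted p = 0.0891 by edgeR). Junb, an AP-1 transcription factor of the early response, fell from 1574, 1431 and 1194 CPM to 915, 763 and 738 CPM (log2 -0.82 ± 0.10 SE, adjusted p = 4.15e-05 by edgeR), beside a log2 ratio of -0.73 in other B cells that passed too (adjusted p = 0.00193 by edgeR). Plaur, the urokinase receptor, fell from 323 to 361 CPM in Con to 188 to 194 CPM in T2D (log2 -0.85, adjusted p = 0.000209 by edgeR). Its log2 ratio in other B cells was -0.56 and did not pass (adjusted p = 0.454 by edgeR). In members the groups did not overlap for these genes.

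Changes of the same sign also passed for Smad7, the inhibitor of TGF-beta signalling (256 to 147 CPM, log2 -0.82), Midn (217 to 129 CPM, log2 -0.76), Csrnp1 (406 to 265 CPM, log2 -0.63) and the clock gene Per1 (431 to 291 CPM, log2 -0.60). Rell1 (54.9 to 21.8 CPM, log2 -1.35) and Irf2bpl (174 to 96.9 CPM, log2 -0.88) passed narrowly, with adjusted p of 0.0325 and 0.0319 by edgeR, and Zfp36l2, named here after its value was seen, had a log2 ratio of -0.59. In other B cells Midn, Csrnp1 and Irf2bpl passed too (log2 -0.54, -0.47 and -0.40, adjusted p = 0.00203, 0.00121 and 0.0137 by edgeR). Smad7, Per1, Rell1 and Zfp36l2 had ratios of -0.44, -0.41, -0.25 and -0.40 there and did not pass. Of the 11 called genes named by rule, Ctla4, Cdkn1a, Hes1, Plaur and Junb were called in all 6 fits that left out 1 library. No gene other than Ctla4 passed in the higher direction. Next by p were Wdfy1 (40.6 and 78.8 CPM in Con and T2D) and Cpt1a, the entry enzyme of mitochondrial fatty acid oxidation (107 and 182 CPM), both at adjusted p = 0.0922 by edgeR, and Serpina3g (75.5 and 133 CPM, 0.0976).

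**Figure D5:**
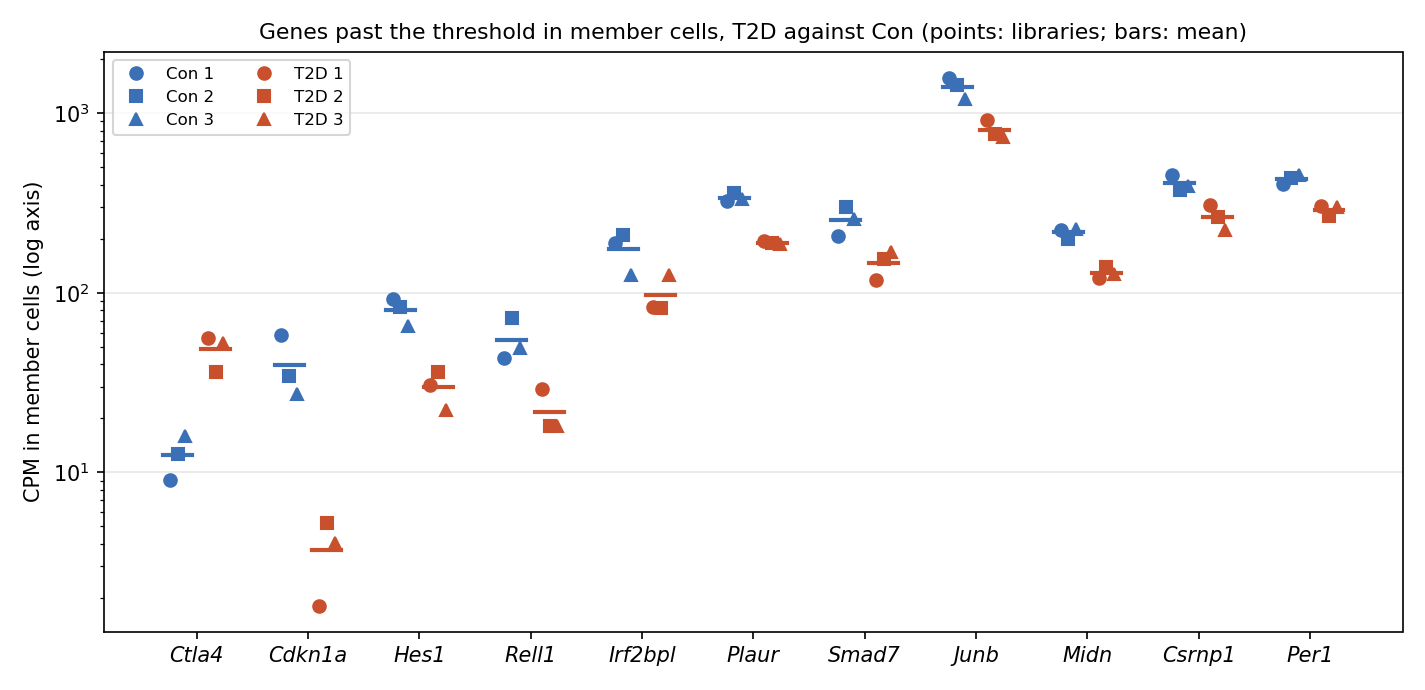
Level in members (CPM, log axis) of the 11 called genes named by rule, 1 point per library with the group mean as a bar, Con against T2D. Ctla4 is higher in all T2D libraries (36.4 to 56.3 against 9.07 to 15.9 CPM), and the other 10 genes are lower in all of them.

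Most gene groups gave no call. Of 24 early-response genes, 20 were tested, and only Junb was called. Of the 20, 13 had a negative and 7 a positive log2 ratio. Their median was -0.21, against -0.30 for these genes in other B cells and 0.002 over all genes in members. The nuclear receptor gene Nr4a1 stood at 547 ± 24.9 CPM in Con and 244 ± 124 in T2D (log2 -1.14, adjusted p = 0.652 by edgeR). Egr1 at 50.1 and 108 CPM, Fos at 301 and 398 CPM and Jun at 427 and 555 CPM had positive ratios that did not pass. The libraries did not overlap for 5 of the 20 in the lower direction, beside 5.57% of all genes, and for 2 in the higher direction, beside 6.56%. Of 20 interferon-stimulated genes 11 were tested, and none was called. Ifit3, given below for the difference of effects, had too few member UMIs and was not among the 11. All 11 had a positive log2 ratio with a median of 0.40, against 0.20 for these genes in other B cells and 0.002 over all genes in members. The ratios of Stat2 and Bst2 were 0.47 and 0.73, and of the 11 only Stat2 had groups that did not overlap, beside 6.56% of all genes non-overlapping in the higher direction.

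The identity genes described above gave no call besides Ctla4. Of the 11 B-1 genes tested, 5 had a positive and 6 a negative ratio, with Zbtb20 at 538 and 577 CPM and Spn at 94.4 and 81.2 CPM in Con and T2D. The 10 memory cortex genes and the 6 memory surface genes had medians of 0.01 and 0.003 on the log2 scale. Of the 10 follicular genes none was called, with Fcer2a at 423 and 344 CPM in Con and T2D. Ighm was at 8052, 7047 and 7347 CPM in Con and 8715, 8941 and 8806 CPM in T2D, a log2 ratio of 0.21 whose libraries did not overlap and which did not pass (adjusted p = 0.409 by edgeR). Red cell RNA was higher in the T2D members, with the 5 erythroid genes summing to 140 to 162 CPM in Con and 416 to 2229 CPM in T2D. None of the 4 tested was called, and the part of this RNA in the other results was not tested.

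The T2D effect itself differed between members and other B cells for 4 of 10804 genes (0.037%) in a test of the difference with library as a block. Igha, the IgA heavy chain, went from 157 to 129 CPM in members and from 36.9 to 66.0 CPM in other B cells, a difference of -1.15 ± 0.19 (SE) on the log2 scale (adjusted p = 0.00016 by edgeR). Its member levels overlapped between groups. Of the member Igha UMIs, 304 lay in the 60 switched members and 196 in the 742 unswitched ones. Only 10 members were switched cells carrying mainly Igha, so the member level rested largely on few cells. T cells, which do not make IgA, had an Igha UMI in 8.84% of Con and 18.2% of T2D cells. The part of free RNA in this difference was not tested. Cdkn1a fell further in members, by a difference of -2.42 (adjusted p = 0.0101 by edgeR). Ifit3, an interferon-induced gene, went from 7.59 to 32.7 CPM in members and from 21.2 to 17.8 CPM in other B cells (difference 2.35, adjusted p = 0.0075 by edgeR), on 6, 5 and 2 member UMIs in Con and 28, 13 and 15 in T2D. Cd24a, a glycosyl-anchored surface protein, was at 699 and 764 CPM in members and 563 and 450 CPM in other B cells (difference 0.44, adjusted p = 0.0101 by edgeR). None of the 4 was called when cells with 2 or more UMIs of other lineages' genes were left out, which kept 241 of the 802 members, and 377 genes then had an unadjusted p under 0.05.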

How the data were processed

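The labels describe 6 libraries of blood mononuclear cells, 3 per group. The authors deposited 1 table of raw UMI counts per library (31253 genes by barcode); CASAVA 1.8, UMI-tools, Seurat and mm10 are listed in the submitters' processing notes, while the aligner, the annotation, and whether strand was used in counting are each not given in the sources used here. Of the gene identifiers, 31184 matched GENCODE M21. The lowest barcode held 501 UMIs, and median depth per library was 2814 to 3244 UMIs.

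Counts were used as deposited. The members, the gene lists and the choice of tests were made with earlier results of these data known. Member UMIs were summed per library and tested, Con against T2D, with edgeR 4.0.16 (quasi-likelihood test, TMM scaling, low-count filter, R 4.3.3) with Benjamini-Hochberg adjustment over all genes tested. A call is an adjusted p under 0.05. Filtering keeps genes with enough UMIs in either group, so a gene at low level in 1 group passed only through the other. Shares of kept cells were tested the same way over 8 cell classes. Shares of gated B cells were tested over 3 classes: members, and other B cells with and without a marker UMI. Both were also tested with exact permutation tests. The difference of effects was fitted over members and other B cells with library as a block. DESeq2 1.42.0 was an alternative. The script for gene tests was tested on simulated data.

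Members and other B cells were compared by log2 ratio per library with 20 CPM added, for genes of at least 5 CPM in either class, without a test. Named genes were the 20 highest and 10 lowest of these ratios, and in the T2D comparison the 10 called genes per direction with the largest change and no overlap between groups, filled up by p without a call. Thinning drew 1500 UMIs per cell and left out 5485 shallower cells, 10 of them members. Libraries differed from each other beyond sampling noise (lowest chi-square per degree of freedom 10.2). Intervals and limits from a count of 0 cover counting error only. Alternatives were other scalings, filters, marker thresholds, exclusion of likely doublets or of cells with UMIs of other lineages, thinning, a replicate block and leaving out each library. Moving or leaving out the Nid1-alone cells was added after the data were seen.
Some genes of the lists are not reported here by name; the list counts include them.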

Additional observations from a re-analysis of the deposited data

Results flagged for a closer look

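For 4 genes the T2D effect in the member cells differed from that in the other B cells of the same libraries by edgeR's quasi-likelihood test of the difference. The differences on the log2 scale were -1.15 for Igha, 2.35 for Ifit3, -2.42 for Cdkn1a and 0.44 for Cd24a. For Igha the difference passed in all 6 fits without 1 library (highest adjusted p = 0.0453 by edgeR, without T2D library 2). The member level of Igha rested largely on few cells, with 304 UMIs in the 60 switched members, 10 of which carried mainly Igha. Ifit3 did not pass without Con library 3 (adjusted p = 0.125 by edgeR) or T2D library 1 (0.134), and 28 of its 56 T2D UMIs were in T2D library 1. Cdkn1a did not pass without Con library 1 (adjusted p = 0.0591 by edgeR) or T2D library 2 (0.163), and Cd24a without Con library 1 (0.137) or T2D library 1 (0.102).

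With cells holding 2 or more UMIs of other lineages' genes left out, the differences were 0.28 for Igha, 0.45 for Ifit3, -0.55 for Cdkn1a and 0.53 for Cd24a, and none passed.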

How the results depend on the processing

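Same-numbered libraries did not pair (correlations of deviations 0.0243, -0.0135 and 0.0273). With a replicate block, 31 genes were called in members in place of 12, the log2 ratio of the share of kept cells was -0.15, and that of gated B cells passed (0.23, adjusted p = 0.0340 by edgeR). With no low-count filter the calls were 33 in members, 7 for the difference of effects and 1 of the 4 markers. Leaving out 1 library gave 10 to 27 calls in members (27 without T2D library 1), 5 to 16 for the difference, of which 2 to 4 were among the main 4, and 0 to 1 markers (1 without T2D library 3). It gave log2 ratios of the member share of -0.26 to -0.05, of Zbtb32 in gated B cells of -0.18 to 0.37 and of Nid1 of -0.19 to 0.039. It gave -0.258 to 1.24 percentage points for Igkv14-126 and -2.46 to 0.321 for the switched share. Leaving out cells with 2 or more UMIs of other lineages left 0 calls for the difference, with Igha at 0.28, and 12 in members, 4 of them among the original 12. The member share had a log2 ratio of 0.11 after thinning and 0.055 with Nid1-alone cells moved; of gated B cells it was 0.23, 0.45 thinned and 0.43 with Nid1-alone cells moved. Adding 5 CPM in place of 20 gave 159 in place of 49 genes at least 2-fold apart in 6 of 6 libraries. The causes were not tested. TMM, RLE and no scaling moved the median gene by at most 0.024 and called 12, 12 and 11 genes, and DESeq2 called 11, 10 of them shared. Depth limits single genes: Cdkn1a had 7 T2D UMIs, and 82 members had a heavy V gene assigned.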

Other observations

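Receptors that set B cell survival and help differed between members and other B cells, as a description without a test. Of 8 such genes measured, 4 were lower in 6 of 6 libraries, Il21r, Tnfrsf13c (the BAFF receptor), Cd40 and Il4ra, and 2 were higher. Of 16 genes of antigen receptor signalling, 4 were higher and 1 lower in 6 of 6, with a median log2 ratio of 0.02. Of 16 homing genes, 7 were higher and 4 lower. Among all 9395 genes compared, 8.33% were higher and 11.7% lower in 6 of 6 libraries. Il12a, a subunit of interleukin 12 and 35, stood at 23.5 CPM in members and 52.2 CPM in other B cells.

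RNA of other lineages was not higher in members than in other B cells for most lists. Summed levels were 370 and 334 CPM for T cell genes, 131 and 202 for NK cell genes, 363 and 564 for monocyte genes, 107 and 245 for granulocyte genes and 623 and 893 for erythroid genes. Summed over members, dendritic cell genes ranged from 3.63 to 12.6 CPM in Con libraries and 5.44 to 24.2 CPM in T2D libraries, with Siglech, Cox6a2 and Clec9a at 0. Platelet genes ranged from 15.9 to 28.8 and from 14.3 to 66.7 CPM, with Gp1bb at 0.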
